A study of Mus musculus with 9 samples.

Results

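Genes for the proteins of the cytosolic ribosome were followed in the peripheral blood of mouse embryos of 3 Cbfb genotypes. A gene was included when the array's annotation gave it a symbol of the Rpl, Rps or Rplp type. S6 kinase genes, Rps19bp1 and annotated pseudogenes were left out, and only probe sets that name a single gene were used. This gave 48 of the 18193 genes that the array reads in this way, with 22 of the small subunit, 24 of the large subunit body and 2 of its stalk. Where a gene had several such probe sets, the brightest over the 9 arrays stands for it. Neither the symbol rule nor the choice of probe set used a comparison between genotypes, but the genes were chosen with earlier results of these data known.

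The homozygous embryos carried Cbfb ΔC95/ΔC95, the heterozygous embryos Cbfb +/ΔC95 and the wild-type embryos Cbfb +/+, all at E12.5 on a mixed C57BL6/129SvEv background and all from matings between heterozygotes. Cbfb encodes CBFβ, the partner of the RUNX transcription factors. The series concerns CBFβ-SMMHC, the fusion of CBFβ with smooth muscle myosin heavy chain found in a human leukaemia, and its C-terminus; the labels name the ΔC95 allele without describing it further. Each array, of 3 per genotype, was hybridized with total RNA of blood pooled from 8 to 10 embryos, and whether a genotype's 3 arrays had a pool each is not recorded in the labels. The p-values therefore measure the spread between arrays, which may be partly technical.

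A ribosome has a small subunit, which decodes the mRNA, and a large subunit, which joins the amino acids. Each holds ribosomal RNA and many small, mostly basic proteins, made in near-equal amounts. The mRNAs of these proteins typically begin with a run of pyrimidines at the cap, through which the mTOR pathway sets their translation. Red cell precursors depend on a high output of ribosomes, and loss of a single copy of several of these genes, RPS19 first among them, causes Diamond-Blackfan anaemia in humans.

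Values are the deposited log2 intensities, so a difference of 1 is a doubling. A difference is called when its p-value from limma, a linear model with a moderated variance fitted to all 45037 probe sets, is below 0.05 after Benjamini-Hochberg adjustment. Array values of different genes cannot be set against each other as amounts of mRNA, because each probe set has its own brightness. The array also reads mRNA per unit of total labelled RNA, so in this bulk blood fewer cells of a type and less RNA per cell cannot be told apart. Red cell markers were bright in all 3 genotypes: the summed linear level of 7 of them, among them Hba-x, Hbb-y and Alas2, was 81895 to 82482 in homozygous, 80202 to 81400 in heterozygous and 81238 to 81638 in wild-type blood. Of these 7, 1 was called lower in homozygous and 1 in heterozygous blood, each against wild type, and a linear sum mainly follows its brightest members. All 12 macrophage markers were called lower in homozygous blood, set against wild type, with summed levels of 377 to 387 and 2293 to 2322, and 1781 to 1821 in heterozygous blood. Of 8 megakaryocyte markers 7 were called lower, with sums of 484 to 537 in homozygous, 1603 to 1658 in heterozygous and 1294 to 1318 in wild-type blood. Granulocyte markers were called lower for 3 of 6 in homozygous and 4 of 6 in heterozygous blood (sums of 176 to 190, 248 to 256, and 400 to 440 in wild-type blood). Mesenchyme markers were called lower for 5 of 6 in homozygous blood, with sums of 248 to 265 in homozygous, 487 to 516 in heterozygous and 373 to 381 in wild-type blood. Of all genes, 10.7% were called higher and 14.9% lower in homozygous blood against wild type, and 4.79% and 7.04% in heterozygous blood. The part that these other cells have in the ribosomal protein results was not tested.

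In homozygous blood, 17 of the 48 ribosomal protein genes were called higher than in wild-type blood and 2 were called lower, while 29 were not called. Over all genes, 10.7% were called higher and 14.9% lower. Setting the means of 4 reference genes equal added 0.18 to the difference of every gene on the array alike. With that shift 33 of the 48 were higher and 0 lower (median 0.24). With Gusb left out of the 4 the shift was 0.02, and 17 were higher and 2 lower. An intensity trend in the variance gave 22 and 8, and the shares of all genes under these alternatives were not counted. The rises were small for most: their log2 differences ran from 0.19 for Rps4x to 0.82 for Rpl14, and the median over all 48 genes was 0.07, beside 0.05 over all 18193 genes. The middle part of the distribution, between the quartiles, lay between -0.04 and 0.23. The homozygous arrays lay wholly above the wild-type arrays for 26 genes and wholly below for 12, where 20.9% and 18.3% of all genes did so.

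**Figure D1:**
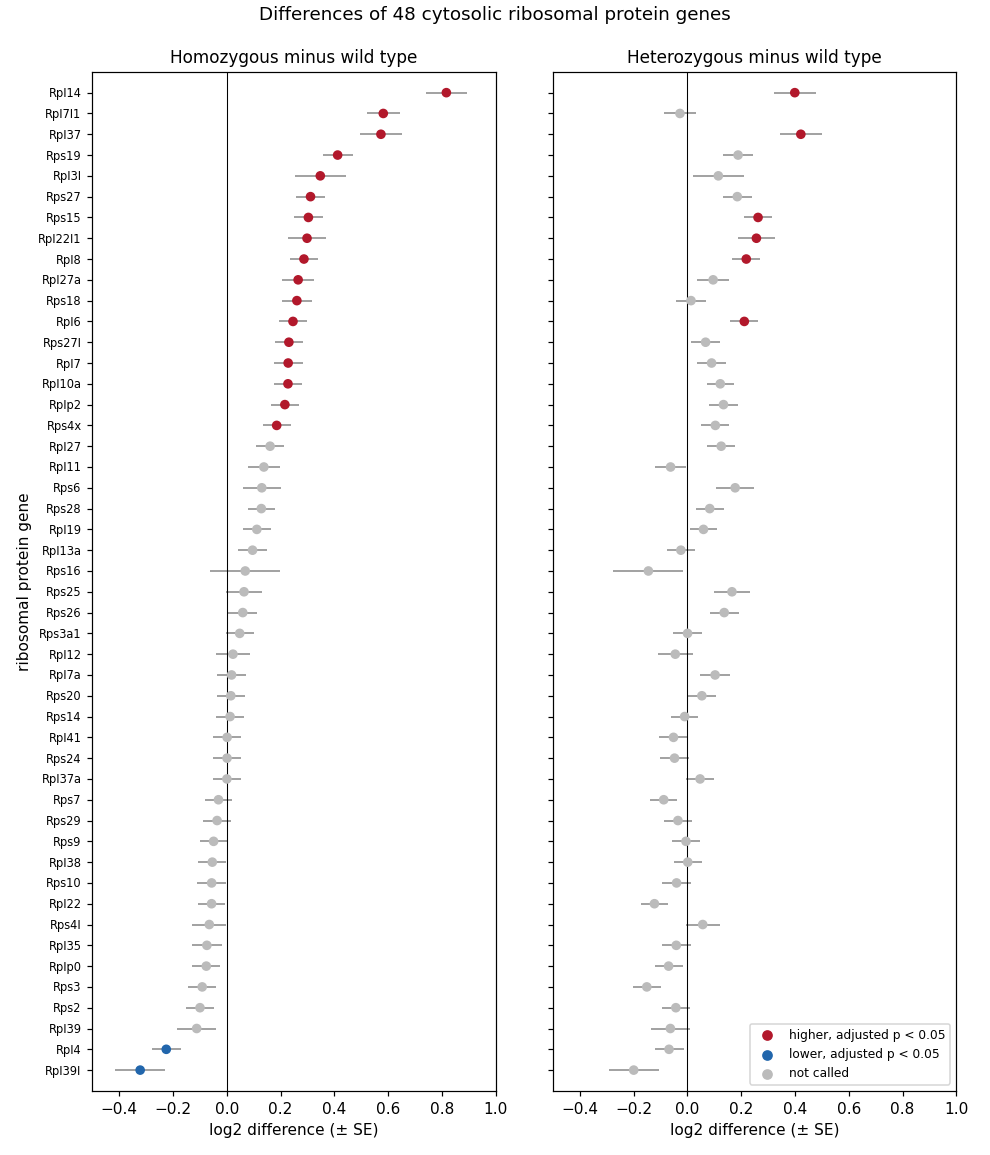
Log2 difference of each of the 48 genes, homozygous minus wild type on the left and heterozygous minus wild type on the right, with its standard error from limma (3 arrays per genotype). Red points passed the threshold upwards, blue points downwards and grey points did not pass; 17 red and 2 blue points stand on the left, 6 red points on the right.

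Rpl14, a large subunit protein that is found in eukaryotes and lies at the surface of the subunit, had the largest difference. It read 7.14, 6.94 and 6.90 in homozygous blood, 6.63, 6.63 and 6.47 in heterozygous blood and 6.12, 6.15 and 6.27 in wild-type blood. The 3 genotypes did not overlap, and heterozygous blood lay between homozygous and wild-type blood. The difference from wild type was 0.82 ± 0.08 (SE) in homozygous blood, a 1.76-fold rise (limma, adjusted p = 8.41e-06), and 0.40 ± 0.08 in heterozygous blood (adjusted p = 0.00635). Homozygous also exceeded heterozygous blood, by 0.42 (adjusted p = 0.0035).

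The probe set behind these values is a dim reading of Rpl14, and the array has 5 brighter probe sets that the annotation assigns to Rpl14 together with other loci. All 5 were called higher in homozygous blood, with differences from 0.58 to 0.74, and 4 of them in heterozygous blood, with differences from 0.23 to 0.34 over the 5. These shared readings cannot be assigned to a single gene.

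Rpl37, another large subunit protein, read 7.85, 7.67 and 7.77 in homozygous blood, 7.66, 7.58 and 7.60 in heterozygous blood and 7.04, 7.32 and 7.21 in wild-type blood. Both mutant genotypes lay above all wild-type arrays, by 0.57 (adjusted p = 0.000161) and 0.42 (adjusted p = 0.00466, limma). Between homozygous and heterozygous blood the difference of 0.15 was not called (adjusted p = 0.255). The 3 probe sets that Rpl37 shares with its copy Rpl37rt spread from -0.03 to 0.28 in homozygous against wild-type blood, the brightest of them at -0.03, so the size of the Rpl37 difference was not the same in every reading.

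Among the large subunit genes with bright probe sets, Rpl8, whose protein sits beside the site where peptide bonds form, read 13.01, 13.02 and 12.96 in homozygous, 12.91, 12.91 and 12.97 in heterozygous and 12.70, 12.71 and 12.71 in wild-type blood. Its differences from wild type were 0.29 in homozygous blood (adjusted p = 0.00172) and 0.22 in heterozygous blood (adjusted p = 0.0227). Rpl6, which contacts Rpl14 in the eukaryotic ribosome, read 12.59, 12.60 and 12.59 in homozygous blood, 12.52, 12.56 and 12.58 in heterozygous blood and 12.34, 12.36 and 12.34 in wild-type blood. For both genes every mutant array stood above every wild-type array, by several times the spread within a genotype. Rpl10a, the protein of the mobile arm at the ribosome's exit side, Rpl27a and Rpl7 rose in homozygous blood by 0.23, 0.27 and 0.23, and were not called in heterozygous blood at 0.12, 0.10 and 0.09. The Rpl27a reading had a mean of 10.79. A brighter probe set that names Rpl27a with other loci (mean 12.87) differed by 0.09 in homozygous and -0.03 in heterozygous blood. Neither was called (limma, adjusted p = 0.257 and 0.854).

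Rpl4, whose long extension lines the tunnel through which the new protein leaves, went the other way. It read 12.40, 12.33 and 12.35 in homozygous blood, 12.52 ± 0.03 (mean ± SD) in heterozygous blood and 12.56, 12.60 and 12.60 in wild-type blood. Homozygous blood was lower than wild type by 0.23 on the log2 scale (-0.23, limma, adjusted p = 0.0101), and the heterozygous difference of -0.07 was not called (adjusted p = 0.585). Rpl4 and the dim paralogue Rpl39l were the 2 genes called lower.

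The stalk is the flexible arm of the large subunit that recruits the elongation factors. Rplp2 read 13.29, 13.24 and 13.22 in homozygous, 13.15, 13.15 and 13.20 in heterozygous and 13.02, 13.05 and 13.03 in wild-type blood, a rise of 0.22 in homozygous blood (limma, adjusted p = 0.0121). Its base, Rplp0, was not called, at 13.32, 13.29 and 13.29 in homozygous blood and 13.35, 13.40 and 13.39 in wild-type blood. The stalk partner Rplp1 is read only by a probe set shared with other loci, and that reading differed by 0.01 (adjusted p = 0.949). Counting the stalk, 11 of 26 large subunit genes were called higher in homozygous blood and 2 lower, with a median difference of 0.12. Over all genes, 10.7% were higher and 14.9% lower.

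In the small subunit 6 of 22 genes were called, all higher, with a median difference of 0.05, beside 10.7% of all genes higher and 14.9% lower. The 2 subunits were not tested against each other. Rps19, which stands on the head of the subunit and is needed to mature its ribosomal RNA, led them. It read 12.11, 12.05 and 11.98 in homozygous blood, 11.80, 11.82 and 11.84 in heterozygous blood and 11.64, 11.62 and 11.64 in wild-type blood. The 3 genotypes were separate from each other. The homozygous difference of 0.41 ± 0.06 (SE) was a 1.33-fold rise (limma, adjusted p = 0.000165), and the heterozygous difference of 0.19 did not pass (adjusted p = 0.0616). Homozygous blood exceeded heterozygous blood by 0.22 (adjusted p = 0.0213), a call that was lost when heterozygous array 1 or 2 was left out.

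Rps15, a protein of the subunit head near the decoding site, read 13.42, 13.37 and 13.35 in homozygous, 13.32, 13.32 and 13.37 in heterozygous and 13.07, 13.09 and 13.07 in wild-type blood. It rose by 0.30 in homozygous blood and by 0.26 in heterozygous blood (limma, adjusted p = 0.00123 and 0.00842), and the mutant genotypes overlapped each other. A second Rps15 probe set gave 0.15 and 0.11, neither of them called.

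Rps18, also of the head, separated homozygous blood from both other genotypes: 13.23, 13.14 and 13.13 in homozygous blood, against 12.90, 12.91 and 12.94 in heterozygous and 12.90, 12.92 and 12.90 in wild-type blood. Heterozygous and wild-type arrays overlapped, and the homozygous difference was 0.26 from wild type (adjusted p = 0.00433) and 0.25 from heterozygous blood (adjusted p = 0.0108, limma). Rps27, a zinc-binding protein of the subunit's surface, had a dim single-gene reading of 5.41, 5.38 and 5.49 in homozygous and 5.13, 5.10 and 5.13 in wild-type blood, a difference of 0.31 (adjusted p = 0.00119). The brighter probe set it shares with its copy Rps27rt differed by 0.57 in homozygous and 0.38 in heterozygous blood. Rps4x, read at 13.31, 13.36 and 13.36 in homozygous and 13.15, 13.17 and 13.16 in wild-type blood, rose by 0.19 (adjusted p = 0.0249). The Rps4x call was lost when homozygous array 2 or 3, or any wild-type array, was left out.

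**Figure D2:**
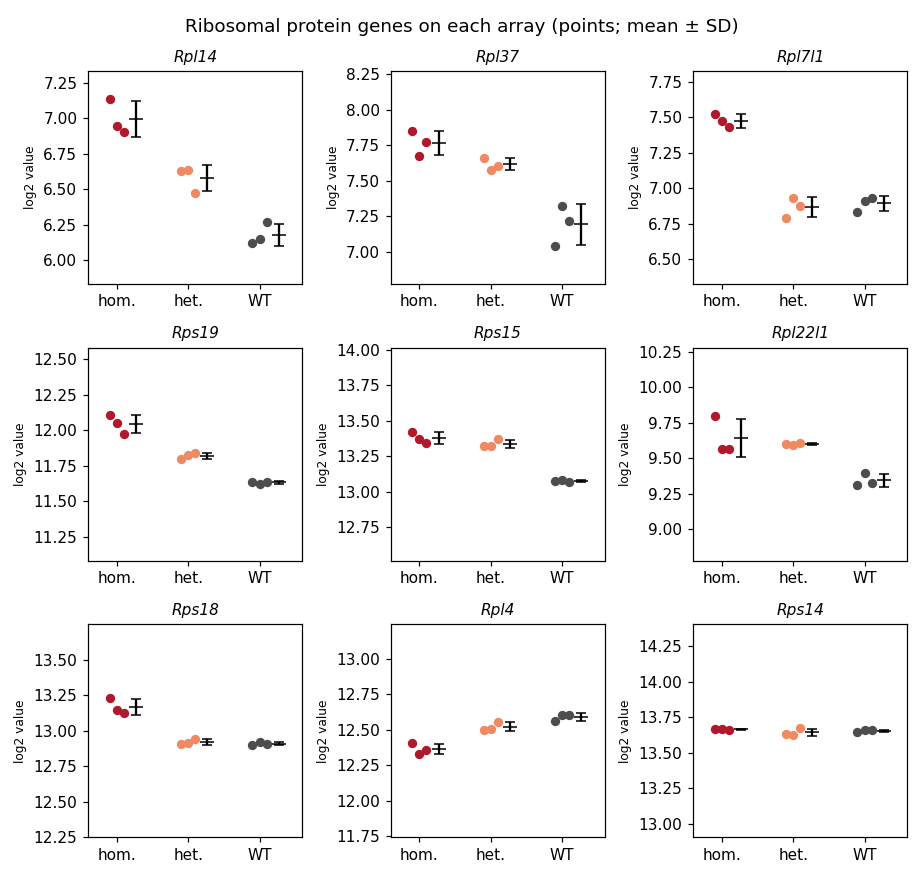
Log2 value on each array for 9 genes, with homozygous (hom.), heterozygous (het.) and wild-type (WT) blood from left to right; bars give mean ± SD (n = 3), and every panel spans the same range of log2 values. Rpl14 and Rps19 step down across the genotypes, Rpl7l1 and Rps18 are high in homozygous blood, and Rps14 is level.

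Several members are known from inherited or acquired anaemias in humans. A chosen list of such genes, which does not hold all of them, was followed. Beside Rps19, its Diamond-Blackfan genes Rps7, Rps10, Rps24, Rps26 and Rpl11 have a single-gene probe set here. So does Rps14, the ribosomal gene of the myelodysplastic syndrome with a deleted long arm of a chromosome. Rps14 read 13.67, 13.67 and 13.66 in homozygous blood, 13.63, 13.62 and 13.68 in heterozygous blood and 13.64, 13.66 and 13.66 in wild-type blood. The difference of 0.01 between homozygous and wild-type blood had a 95% confidence interval from -0.10 to 0.12. Rps7 differed by -0.03, Rps10 by -0.06, Rps24 by 0.00 and Rps26 by 0.06, and no interval among these 4 reached beyond -0.17 or 0.18. Rpl11, which with Rpl5 carries a ribosomal RNA into the large subunit and can bind Mdm2, read 10.78, 10.70 and 10.62 in homozygous, 10.48, 10.49 and 10.53 in heterozygous and 10.56, 10.56 and 10.56 in wild-type blood. It was called between homozygous and heterozygous blood (0.20, limma, adjusted p = 0.0455) and not between homozygous and wild-type blood (0.14, adjusted p = 0.130). That call was lost when any array other than homozygous array 3 was left out. Rpl5 and Rpl35a, also Diamond-Blackfan genes, are read only by shared probe sets: the brightest that names Rpl5 differed by -0.08 (adjusted p = 0.358) and that of Rpl35a by 0.26 (adjusted p = 0.0048).

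Several ribosomal protein genes have a diverged relative. In some pairs the relative's protein can stand in for the first, which is not implied for every pair below. Rpl22l1, which mouse Rpl22 is known to hold down, read 9.80, 9.56 and 9.57 in homozygous, 9.60, 9.59 and 9.61 in heterozygous and 9.31, 9.40 and 9.33 in wild-type blood. It rose by 0.30 in homozygous and 0.26 in heterozygous blood (limma, adjusted p = 0.0089 and 0.0425). Rpl22 itself read 13.45, 13.45 and 13.43 in homozygous, 13.38, 13.37 and 13.38 in heterozygous and 13.53, 13.47 and 13.49 in wild-type blood, differences of -0.06 and -0.12 that were not called. Taken within each array, Rpl22l1 minus Rpl22 was larger than in wild-type blood by 0.35 in homozygous and 0.38 in heterozygous blood, with no overlap of the arrays.

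Rpl7l1, a relative of Rpl7, read 7.52, 7.47 and 7.43 in homozygous blood, 6.79, 6.93 and 6.87 in heterozygous blood and 6.83, 6.91 and 6.93 in wild-type blood. Only the homozygous arrays stood apart, by 0.58 from wild type (limma, adjusted p = 1.86e-05) and 0.61 from heterozygous blood (adjusted p = 3.29e-05). Its other single-gene probe sets gave 0.11 and 0.12 in homozygous against wild-type blood, neither called, so the difference from wild type rests on a single probe set. Against heterozygous blood they gave 0.28, called higher (adjusted p = 0.0129), and 0.22, not called (adjusted p = 0.275).

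Rpl39l, in mouse a mainly testicular relative of Rpl39, read 4.12, 4.40 and 4.35 in homozygous, 4.55, 4.36 and 4.33 in heterozygous and 4.74, 4.57 and 4.52 in wild-type blood, a homozygous difference of -0.32 (adjusted p = 0.0272). Rpl3l, the striated muscle form of Rpl3, had the dimmest probe set of all 48, at 2.92, 2.96 and 3.28 in homozygous and 2.67, 2.67 and 2.77 in wild-type blood (0.35, adjusted p = 0.0209). Both are among the dimmest of the 48, at means of 4.44 for Rpl39l and 2.86 for Rpl3l. The array medians over all probe sets were 4.26 to 4.29. Both calls were lost when some arrays were left out. These were homozygous array 1 or wild-type array 1 or 2 for Rpl39l, and homozygous array 3 or wild-type array 1 or 2 for Rpl3l. Rps27l, a target of p53, rose by 0.23 in homozygous blood (adjusted p = 0.00766), beside 0.31 for Rps27. Rps4l differed by -0.07 and was not called, while Rps4x rose.

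Of 5 such pairs, each tested in homozygous and in heterozygous blood against wild type, 7 of the 10 within-array differences separated the arrays completely. In an exact permutation test (2-sided) 3 arrays against 3 cannot go below p = 0.1, which is 0.143 after adjustment over the 10 tests, so none could pass the threshold. The homozygous values, each the paralogue's change minus that of its relative, were 0.35 for Rpl22l1, 0.35 for Rpl7l1, -0.08 for Rps27l, -0.21 for Rpl39l and -0.25 for Rps4l. With all single-gene probe sets averaged, the Rpl7l1 value fell to 0.00 and that of Rpl22l1 was 0.34.

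The remaining genes not called in homozygous against wild-type blood were Rpl27, Rps6, Rps28, Rpl19, Rpl13a, Rps16, Rps25, Rps3a1, Rpl12, Rpl7a, Rps20, Rpl41, Rpl37a, Rps29, Rps9, Rpl38, Rpl35, Rps3, Rps2 and Rpl39. Their differences lay between -0.11 for Rpl39 and 0.16 for Rpl27, whose adjusted p of 0.0519 was just outside the threshold. Rpl41, with the brightest probe set of the 48, read 13.78, 13.74 and 13.72 in homozygous and 13.77, 13.73 and 13.74 in wild-type blood. Rps16, at a mean of 4.04 over the arrays, varied by up to 0.24 (SD) within a genotype, while the 2 bright shared probe sets that name it differed by 0.16 (mean 13.58, limma, adjusted p = 0.0623) and 0.24 (mean 13.18, adjusted p = 0.00495). Rps6, the small subunit protein phosphorylated by S6 kinase, is named by 9 shared probe sets with differences from 0.07 to 0.65, 7 of them called higher. Rpl12, at a mean of 4.85, is named by 2 bright shared probe sets that were lower. They differed by -0.18 (mean 12.48, limma, adjusted p = 0.0267) and -0.14 (mean 12.80, adjusted p = 0.0898). In heterozygous against wild-type blood they differed by -0.21 (limma, adjusted p = 0.0256) and -0.15 (adjusted p = 0.131).

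In heterozygous against wild-type blood, 6 genes were called higher, Rpl37, Rpl14, Rps15, Rpl22l1, Rpl8 and Rpl6, and 0 lower, where 4.79% of all genes were higher and 7.04% lower. Without adjustment, 14 were higher and 2 lower at p below 0.05 in limma, and with an intensity trend in the variance limma called 16 higher and 4 lower. For these 2 settings the shares of all genes were not counted. The median difference was 0.05, beside 0.01 over all genes. The heterozygous arrays lay wholly above wild type for 22 genes and wholly below for 8, where 14.2% and 15.7% of all genes did so. The calls of Rpl22l1, Rpl8 and Rpl6 were lost, leaving 3, when any heterozygous or wild-type array was left out, and without homozygous array 1 there were 8.

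All 6 genes were also called in homozygous blood. That comparison uses the same wild-type arrays, so it is not separate evidence. Rps19, Rps27 and Rplp2, called in homozygous blood, differed by 0.19, 0.19 and 0.13 in heterozygous blood without passing the test. Directly between homozygous and heterozygous blood, 5 genes were called higher (Rpl7l1, Rpl14, Rps18, Rps19 and Rpl11) and 0 lower, where 5.38% of all genes were higher and 10.4% lower. The median was 0.05, beside 0.03 over all genes. Without adjustment 11 were higher and 1 lower at p below 0.05 in limma, and the intensity trend gave 16 and 5, again without a count over all genes. The count of 5 became 3 when heterozygous array 1 or 2 was left out, or when only these 2 genotypes were fitted.

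**Figure D3:**
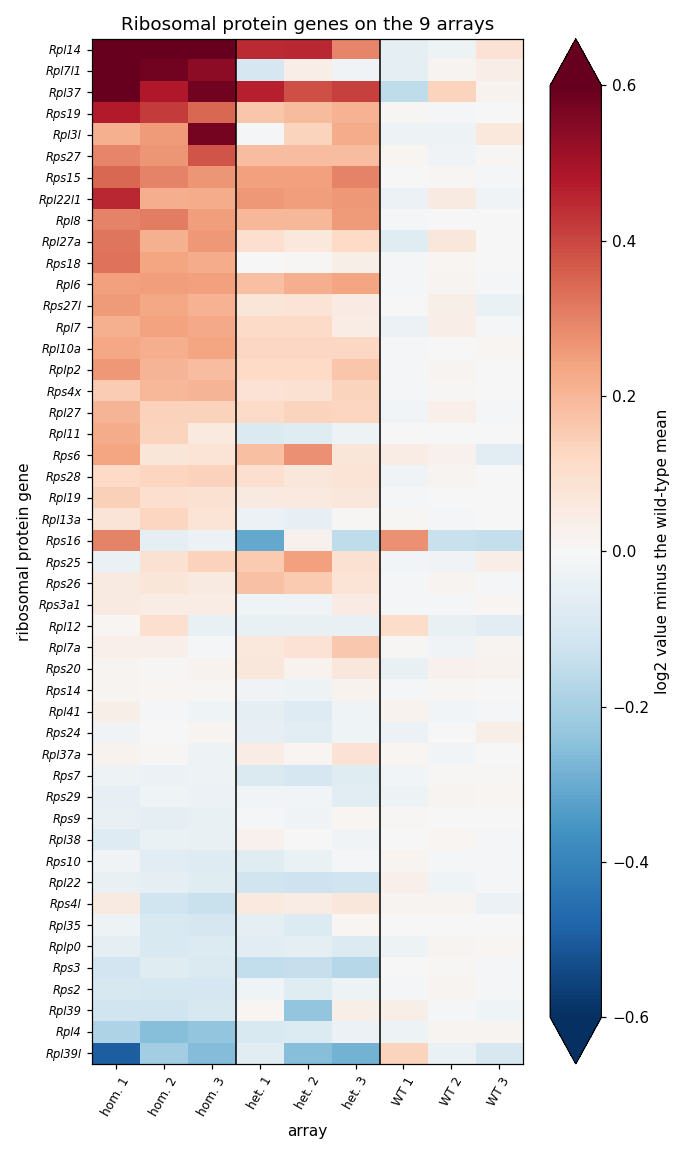
Each of the 48 genes (rows, ordered by their homozygous difference) on each of the 9 arrays (columns: homozygous, heterozygous, wild type), coloured by log2 value minus the wild-type mean of the gene; colours saturate at 0.6 either way. The upper rows are red in homozygous and paler in heterozygous columns, most of the lower rows are close to white or pale blue, and the bottom row, Rpl39l, is darker blue, most of all on homozygous array 1.

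The calls are given here by probe set brightness. Among the 22 genes with a mean of at least 13, 3 were called, all higher (Rps15, Rplp2 and Rps4x), and the median homozygous difference was 0.00. Of the 13 genes between 10 and 13, 8 were higher and 1 lower, with a median of 0.23, and of the 13 below 10, 6 were higher and 1 lower, with a median of 0.13. Of the 22 other genes in the top class 0% were called higher and 31.8% lower, with a median of -0.02; without adjustment 0 were higher and 8 lower at p below 0.05 in limma. In the class between 10 and 13, 23.7% of 414 were higher and 37.2% lower, with a median of -0.06. Below 10, 10.4% of 17709 other genes were higher and 14.4% lower, with a median of 0.05. The rank correlation of brightness with the difference was -0.39 over the 48 genes, and -0.53 with its absolute size. The points share arrays and normalization, and this is a description. The highest value on each array was at least 14.49, and 31 of the 48 genes were among the 100 brightest of the array. Whether bright probe sets understate a difference was not tested.

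**Figure D4:**
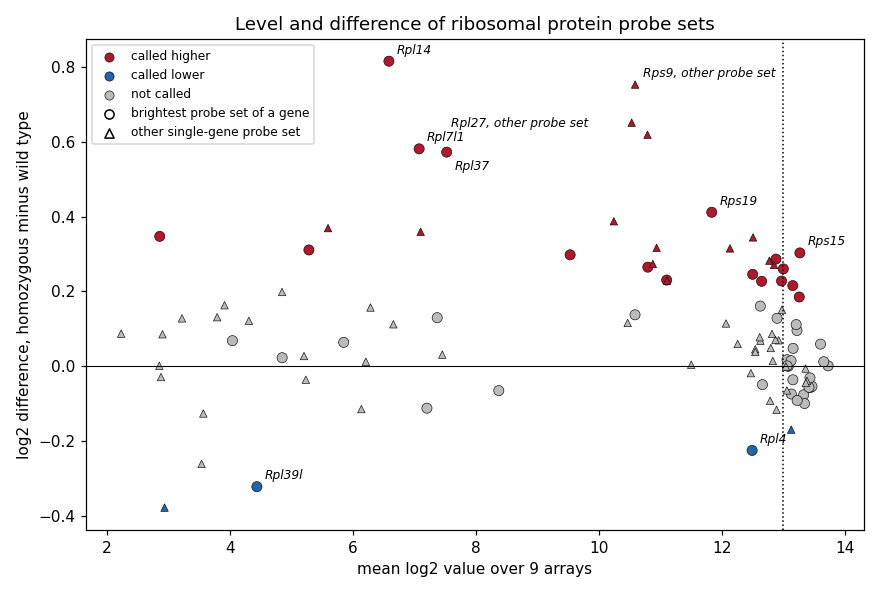
Log2 difference of homozygous minus wild-type blood against the mean log2 value over the 9 arrays, for all 103 probe sets that name a single ribosomal protein gene; circles are the brightest of each gene and triangles the others, coloured by call, and the dotted line stands at 13. Among the circles right of the line, Rps15 (0.30), Rplp2 (0.22) and Rps4x (0.19) are red; of the 13 circles from 10 to 13, 8 are red and 1 is blue.

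Probe sets of the same gene did not always match. Of the 23 genes with several single-gene probe sets, 4 had an uncalled brightest reading beside another, with a mean of at least 6, that was called higher. These 4 genes, and Rps29 below, were singled out after their values were seen. Probe sets with a mean under 6 were outside this count. Among them, also named after their values were seen, a dim Rpl41 probe set (mean 5.59) was called higher in homozygous blood (0.37, limma, adjusted p = 0.00373). A dim Rps24 probe set (mean 2.94) was called lower there (-0.38, adjusted p = 0.00641). Rps9, a protein of the small subunit body, differed by -0.05 in its brightest probe set, at 12.63, 12.62 and 12.63 in homozygous and 12.68, 12.67 and 12.67 in wild-type blood. A second Rps9 probe set averaged 10.88 in homozygous, 10.76 in heterozygous and 10.13 in wild-type blood, differences from wild type of 0.75 in homozygous (limma, adjusted p = 5.1e-05) and 0.63 in heterozygous blood (adjusted p = 0.000848). Rpl27 differed by 0.16 in its brightest and by 0.65 and 0.62 in its other probe sets.

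Rpl13a gave 0.10 in its brightest probe set and 0.39, 0.23 and 0.07 in the others. Rps3, which helps to unwind mRNA at the entry channel, gave -0.09 in the brightest and 0.36 in a dimmer one. Rps29 went the other way, with -0.04 in its brightest and -0.17, called lower, in another. Over all 103 single-gene probe sets, 30 were called higher and 4 lower in homozygous against wild-type blood, where 8.34% of all probe sets were higher and 11.7% lower. The 110 probe sets that name a ribosomal protein gene together with other loci gave 48 higher and 3 lower, with a median of 0.12. They are the only readings of 31 further ribosomal protein symbols, among them Rpl3, Rpl5, Rpl10 and Rplp1. In heterozygous blood these shared probe sets gave 21 higher and 2 lower, where 3.41% and 5.15% of all probe sets were called.

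Promoters were looked at because these genes are known for a common start-site architecture. RefSeq promoters of build GRCm38.p6, from 250 bases before to 50 after the annotated start, were matched for 42 of the 48 genes; Rpl7, Rpl8, Rps14, Rps20, Rps29 and Rps4l were not matched. A run of at least 5 C or T, counted from a C within 5 bases of the start on the gene's strand, was sought. It stood in 20 of the 42 (47.6%), and in 21.2% of 27025 genes. More C or T may stand before that C, as in Rpl14, Rps27 and Rpl27a, so the whole run may begin earlier. The windows below hold 10 bases before the annotated start and 20 from it on, with the run in capitals from the counted C on. They are given for genes called higher that have it (Rpl14, Rps27 and Rpl27a). Genes called higher (Rpl37, Rps15 and Rpl7l1) or lower (Rpl4) that do not have it follow.
Rpl14, chr9:120571507-120571536, plus strand: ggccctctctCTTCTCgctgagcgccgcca
Rps27, chr3:90213629-90213658, minus strand: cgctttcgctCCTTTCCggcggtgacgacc
Rpl27a, chr7:109519185-109519214, plus strand: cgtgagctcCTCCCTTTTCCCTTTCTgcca
Rpl37, chr15:5116603-5116632, plus strand: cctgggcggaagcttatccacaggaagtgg
Rps15, chr10:80292421-80292450, plus strand: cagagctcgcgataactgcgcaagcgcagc
Rpl7l1, chr17:46782637-46782666, minus strand: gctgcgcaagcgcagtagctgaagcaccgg
Rpl4, chr9:64173377-64173406, plus strand: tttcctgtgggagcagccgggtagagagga

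Of the 20 genes with the run 7 were higher in homozygous blood, and of the 22 without it 8 were higher and 2 lower. The median differences were 0.08 and 0.10. Annotated starts can lie some bases from the start used in these cells, and a missing run says only that these letters are not in this window.

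The letters CCGGAAG, a core of ETS factor sites, stood on either strand in 20 of the 42 promoters (47.6%), against 9.9% of all genes. AAGATGG, a YY1 core, stood in 19.0% against 7.3%, GGGCGG in 57.1% against 38.2%, TATAAA in 14.3% against 15.7% and TGTGGT, the core bound by RUNX factors with CBFβ, in 9.5% against 18.9%. The 7-base ETS match may overlap GGGCGG or a pyrimidine run, and matches were counted separately. Examples of the ETS match, in capitals, are given for a gene called in both mutants (Rpl37), for a gene called in homozygous blood and not in heterozygous blood (Rps18) and for a gene not called (Rpl41).
Rpl37, chr15:5116579-5116608, plus strand: accaagacccgCCGGAAGtagtttcctggg
Rps18, chr17:33955722-33955751, minus strand: agaagcaatttCCGGAAGtggacctccggg
Rpl41, chr10:128549206-128549235, minus strand: tagtaaggcagCCGGAAGtcgctgtctcga

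Of the 20 genes with CCGGAAG, 6 were higher and 1 lower in homozygous blood, and of the 22 without it 9 were higher and 1 lower. The median differences were 0.06 and 0.11.

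The rest of the ribosome and its factors were read from lists. Beside every list count stand the shares of all genes called against wild type. These were 10.7% higher and 14.9% lower in homozygous blood, and 4.79% and 7.04% in heterozygous blood. Of 2 further ribosomal proteins outside the naming rule, Fau, which encodes a small subunit protein fused to a ubiquitin-like one, rose by 0.23 in homozygous blood (adjusted p = 0.00725), and Rpsa differed by 0.02. Of 9 genes on a list of elongation factors and genes named after them, 4 were called, all higher. These were Eef1e1, not itself an elongation factor, at 0.55, and Eef2, which moves the ribosome along the mRNA, at 0.39. Eef1d and the kinase Eef2k each rose by 0.32. In heterozygous blood 3 were called, all higher, and the list's median homozygous difference was 0.13. Other mRNAs with a pyrimidine start split, with 3 higher (Eef2, Eif3f at 0.37 and Btf3 at 0.23) and 6 lower of 15, and a median of -0.16. The largest of these falls were in Vim (-0.61), which encodes an intermediate filament protein, and in Pabpc1 (-0.57), the poly(A) binding protein. In heterozygous blood Vim was higher by 0.82. Of 6 mesenchyme markers, 5 were called lower in homozygous blood (median -0.56) and 2, Col3a1 and Col1a2, higher in heterozygous blood (median 0.11).

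Genes of ribosome assembly and quality control gave 8 higher and 5 lower of 24 in homozygous blood, and 6 and 2 in heterozygous blood, with medians of 0.10 and 0.04. Fbl, the methyltransferase of ribosomal RNA, averaged 9.11 in homozygous, 8.70 in heterozygous and 8.14 in wild-type blood, a rise of 0.97 (limma, adjusted p = 1.88e-07) and 0.56 (adjusted p = 0.000114). Bysl, needed for the small subunit, rose by 0.78 in homozygous blood, and the large subunit assembly factors Pes1 and Bop1 by 0.71 and 0.68. Nemf, which acts on stalled large subunits, and Sbds, which releases Eif6 from the large subunit, were lower by 0.71 (-0.71) and 0.45 (-0.45), and Eif6 was higher by 0.63.

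Among 9 regulators 2 were higher and 3 lower in homozygous blood, with a median of 0.00. Myc, an activator of ribosome production, rose by 0.32 in homozygous and 0.27 in heterozygous blood, and Tsc2, an inhibitor of mTOR, by 0.61 in homozygous blood. Larp1, which binds pyrimidine-start mRNAs, differed by -0.57, Yy1 by -0.61 and Gabpa, an ETS factor, by -0.88. A list of 9 genes held genes of the p53 response to impaired ribosomes and also Gata1, which is not part of that response. Of the 9, 3 were higher (Cdkn1a at 0.42, Mdm4 at 0.25 and Gata1, translated poorly in Diamond-Blackfan anaemia, at 0.18). Lower were 2 (Sesn1 at -1.25 and Mdm2 at -0.78), and the median with Gata1 counted was 0.12. Sesn1 and Mdm2 were also the 2 called in heterozygous blood, at -0.53 and -0.37.

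The ribosome of the mitochondrion is built from other nuclear-encoded proteins. Of its 76 genes, 49 were called higher and 3 lower in homozygous against wild-type blood, with a median of 0.32, and 30 higher and 4 lower in heterozygous blood, with a median of 0.16. Mrps18b averaged 7.29 in homozygous, 6.78 in heterozygous and 6.13 in wild-type blood, and Mrpl52 8.84, 8.62 and 7.96. Over all genes, 10.7% were higher and 14.9% lower in homozygous blood, and 4.79% and 7.04% in heterozygous blood. The difference between the mitochondrial and the cytosolic genes was not tested.

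Control probe sets moved with genotype as well. The poly-A spike-ins, bacterial transcripts that the maker's kit adds before labelling, averaged 11.96 in homozygous, 11.26 in heterozygous and 10.38 in wild-type blood over 24 probe sets. The hybridization spike-ins, added after labelling, averaged 10.60, 10.32 and 10.32 over 18 probe sets. The difference of Actb probe sets at the 3' and 5' ends, a sign of RNA quality, was 1.20, 1.21 and 1.20. Markers of liver and visceral endoderm were also higher in homozygous blood, 4 of 6, with summed linear levels of 844 to 913 in homozygous, 390 to 425 in heterozygous and 503 to 510 in wild-type blood. Muscle markers were called higher in heterozygous blood, 3 of 6, at sums of 331 to 348 and 176 to 181 in wild-type blood. The part of the spike-ins and of these markers in the ribosomal protein results was not tested.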

How the data were processed

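Peripheral blood RNA was read on 9 Affymetrix whole-genome mouse arrays, labelled by the one-cycle method, per the labels' protocols. The authors deposited a table of 45101 probe sets by 9 arrays; its values were taken as log2 from their range and because the submitters' processing notes name RMA, with Affymetrix Expression Console 1.0 and Partek 6.5, without stating the scale. RMA makes the arrays' distributions alike, which removes any uniform difference. No scanner file or detection call was used here, so how far a value stood above background is unknown, and the number of arrays limits the precision.

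After 64 control probe sets were left out, 45037 entered a fit of genotype with limma 3.58.1 under R 4.3.3 (lmFit and eBayes, all 9 arrays, no covariate, 2-sided, Benjamini-Hochberg over all probe sets, threshold 0.05). The procedure was tested on simulated data. Gene symbols came from GEO's platform annotation; Entrez identifiers of all 48 genes matched RefSeq, with no symbol changed. At gene level the brightest single-gene probe set was taken. Replicate numbers did not pair the arrays: deviations of same-numbered arrays correlated at -0.02 to 0.07.

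The genes, lists, tests and alternatives were chosen with earlier results of these data known, so counts are given beside those of all genes, with no test over a list. Named were the 8 largest rises and falls per contrast, the stalk, anaemia and paralogue genes, the 3 brightest and 3 dimmest, and up to 4 called genes of each other list; other genes were named after their values were seen. A planned alignment of paralogue proteins was not run.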

Additional observations from a re-analysis of the deposited data

How the results depend on the processing

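Of the calls among ribosomal protein genes, 16 of 19 in homozygous against wild-type blood, 3 of 6 in heterozygous against wild-type blood and 3 of 5 between homozygous and heterozygous blood held whichever array was left out. Leaving out each array gave 15 to 17 higher and 1 to 2 lower genes in homozygous against wild-type blood (median 0.06 to 0.09), 3 to 8 higher and 0 lower in heterozygous against wild-type blood (median 0.04 to 0.06), and 3 to 5 higher and 0 lower in homozygous against heterozygous blood (median 0.04 to 0.06). The replicate number as a block gave 17 and 2, 3 higher, and 4 higher in the same order of contrasts. An intensity trend in the variance gave 8 lower in homozygous blood, 16 higher and 4 lower in heterozygous blood, and 16 higher and 5 lower between the mutants. Array weights left 1 lower in homozygous blood, and fitting only the 2 groups compared left 3 higher between the mutants. At a threshold of 0.01 there were 0 lower in homozygous blood, 3 higher in heterozygous blood and 2 higher between the mutants. Quantile normalization gave a heterozygous median of 0.019. Setting 4 reference genes (Actb, Gusb, Tbp and Ywhaz) equal moved all differences by 0.18 in homozygous blood, by -0.15 in heterozygous blood and by 0.33 between the mutants. This gave 33 higher and 0 lower in homozygous blood (median 0.24) and 2 higher and 7 lower in heterozygous blood (median -0.10). Between the mutants 47 were higher (median 0.38). Among the genes followed singly, Rpl39 (0.28), Rpl4 (0.17), Rplp0 (0.32), Rps10 (0.31), Rps26 (0.25), Rps29 (0.33), Rps4l (0.21) and Rps9 (0.29) changed sign there and were called. Rpl39l (0.21) changed sign there and was called in neither fit. Genes not followed singly, such as Rps25 and Rps2, also changed sign and were called. Gusb itself differed by -0.65 in homozygous and 0.60 in heterozygous blood; without it, an alternative chosen after seeing the data, the shifts were 0.02, 0.00 and 0.02 in size and heterozygous blood had 3 higher. Averaging the single-gene probe sets of a gene gave a homozygous median of 0.10, turned Rps3 to 0.16 (limma, adjusted p = 0.0375) and gave 10 higher and 1 lower between the mutants. Without the probe sets of types that can read several transcripts the homozygous median was 0.11 over 43 genes. The 26 genes with a mean under 13 had medians of 0.23 in homozygous blood, 0.093 in heterozygous blood and 0.086 between the mutants, and without the 40% dimmest probe sets 1 gene was lower between the mutants. The cause of these changes was not tested, and the shares of all genes under these alternatives were not counted.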
